A study of Mus musculus with 13 samples.

Results

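The comparison described here set GFP-negative CD4 T helper cells from mice given a 4-1BB agonist antibody against CD4 T helper cells from mice given control IgG. Its 5 libraries, 3 GFP-negative treated and 2 IgG, were taken by their library names from the 13 libraries of the series. The mice of these 5 libraries were of the Eomes-GFP line, which reports the transcription factor Eomes with GFP, and also carried Foxp3-Thy1.1, a reporter of regulatory T cells. Every mouse of the series received an NK1.1-depleting antibody (50 µg on days -2 and 5), Vk12653 multiple myeloma cells on day 0, and, on days 10, 13 and 16, 20 µg of 4-1BB agonist or control IgG. On day 18 spleen cells positive for the T cell receptor and CD4 and negative for Thy1.1 were sorted. Treated cells were further divided into GFP-negative and GFP-positive fractions (3 libraries each), whereas IgG cells were not divided, so that the antibody and the GFP gate cannot be told apart in this comparison. A second line, labelled Eomes-TKO and also carrying Foxp3-Thy1.1, gave 2 libraries from antibody-treated and 3 from IgG-treated mice, with cells of neither group divided by GFP. The sources used here do not describe how that line was built. The labels do not say that replicates of a group came from separate animals, so a p-value here reflects how far libraries of a group spread, which may be technical. The starts of the library names, read further below as animals, differ among the 5 libraries, but that reading is an assumption. Ages of the mice were not given in the sources used here.

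4-1BB, encoded by Tnfrsf9, is a costimulatory receptor of the tumour necrosis factor receptor family that appears on activated T cells and signals through TRAF adaptors to NF-kB. NF-kB dimers switch on target genes, among them Tnfaip3 and other feedback inhibitors that shorten the signal. Immediate early genes are switched on within a short time of stimulation without new protein synthesis, and many encode transcription factors (the Fos, Jun, Egr and Nr4a families) or phosphatases that dampen kinase signalling. Cells that enter division raise replication genes and histones in S phase, then cyclins, kinases and spindle proteins for mitosis.

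The 5 libraries held 7627038 to 10881146 estimated counts and 17465 to 18252 detected genes, and 3 counts corresponded to 0.271 to 0.382 CPM, the unit of counts scaled to a common library size. Mitochondrial genes took 1.44% to 2.54% of counts. The labelled identity was checked with markers of CD4 T cells: the 12 T cell identity genes summed to 5374 to 5615 CPM in GFP-negative treated and 5162 to 5675 CPM in IgG libraries, and none was called. Foxp3, read as the check of the Thy1.1 gate, lay at 1.95, 1.10 and 1.26 CPM in GFP-negative treated and at 0.636 and 1.17 CPM in IgG libraries. Ms4a1 (B cells), Tnfrsf17 (plasma cells) and Ncr1 (NK cells) were at 0 in all 5. In all, 4 of 13 B cell, 1 of 10 plasma cell and myeloma, and 2 of 11 NK and innate-like markers were at 0. Zeros of single genes therefore do not show that these cells were absent. Plasma cell and myeloma markers summed to 121.6 to 129.2 CPM in GFP-negative treated and 117.3 to 122.1 CPM in IgG libraries, which overlapped.

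Summed markers of 5 other cell types lay without overlap between the groups. Summed myeloid markers ranged from 19.6 to 41.2 CPM in GFP-negative treated and from 10.1 to 11.1 CPM in IgG libraries. B cell markers ranged from 23.8 to 27.8 and from 10.4 to 12.2 CPM, and erythroid and platelet markers from 13.5 to 45.7 and from 10.4 to 10.7 CPM. NK and innate-like T cell markers went the other way, from 26.7 to 43.4 CPM in GFP-negative treated and from 48.3 to 76.4 CPM in IgG libraries. Regulatory T cell markers, which include genes of activated T cells such as Il2ra and Ctla4, ranged from 176 to 208 CPM in GFP-negative treated and from 146 to 173 CPM in IgG libraries. Among these 5 lists Lyz2 (lysozyme of myeloid cells) and Car2 (a carbonic anhydrase) were called higher, and Klrb1c (the antigen NK1.1) and Cd160 were called lower. The part of such cells in the results that follow was not tested.

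Eomes itself reads out the gate. It lay at 3.54, 1.83 and 2.26 CPM in GFP-negative treated libraries, at 13.99 and 16.8 CPM in IgG libraries, and at 570.3, 705.9 and 684.8 CPM in GFP-positive treated libraries. The fractions therefore matched their labels, and undivided IgG cells lay between them and close to the negative fraction. Relative to IgG, Eomes fell by 2.61 (SE 0.32, adjusted p = 0.00589) on the log2 scale in the GFP-negative fraction, a value that the sort on its reporter could set.

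GFP-negative treated cells differed from IgG cells mainly by genes that were higher. Of 14059 genes tested, 92 were called higher (0.654%) and 15 lower (0.107%) at an adjusted p of 0.05, and 1231 had an unadjusted p under 0.05. Cell division, NF-kB and early response genes made up 59 of the 92 higher calls and 0 of the 15 lower calls. These lists held 72 mitosis, 40 S phase, 39 histone, 25 G1, 70 NF-kB and 48 early response genes tested, some shared. They were chosen with earlier results of these data known, so the 59 calls are not independent support for them. All 107 called genes had no overlap between the 3 and the 2 libraries, while among all genes tested 14.3% lay without overlap higher and 15.7% lower. The number of calls rested on having all 5 libraries. Without GFP-negative treated replicate 1, 2 or 3, 13, 17 or 18 genes were called higher and 3, 4 or 3 lower, and without IgG replicate 1, 9 were higher and 4 lower. Without IgG replicate 2, which left a single IgG library assumed to vary like the other groups, 0 were called higher and 1 lower, and Rgs1, the strongest of the higher calls, had an adjusted p of 0.0783. DESeq2 called 250 higher and 47 lower, and limma-voom 32 and 8.

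**Figure D1:**
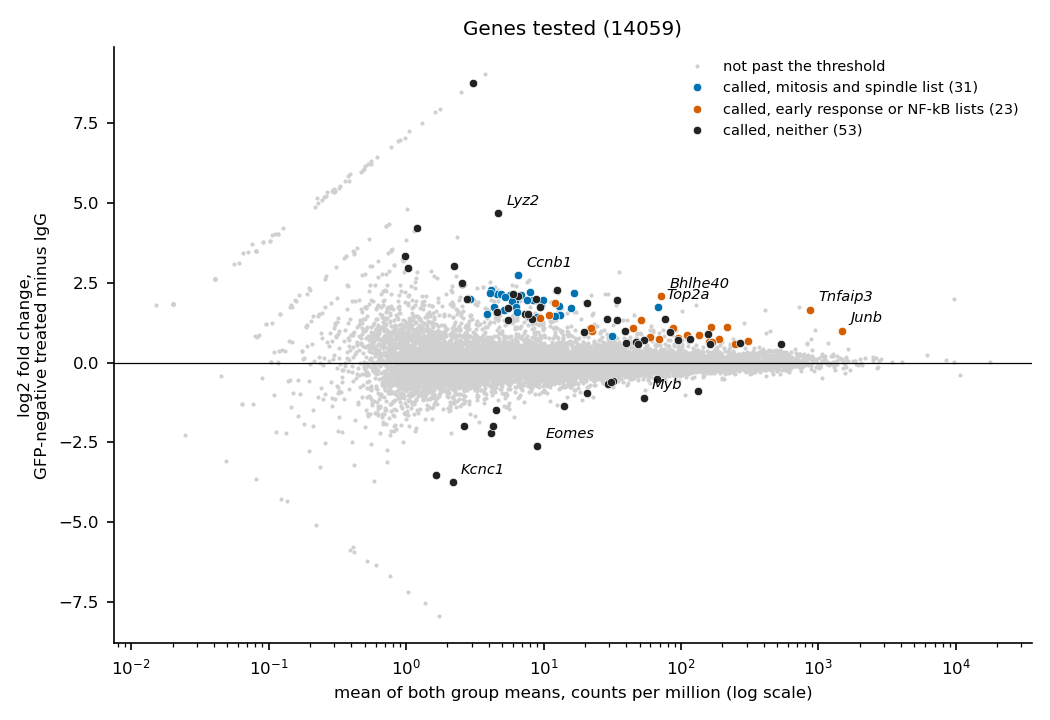
Log2 fold change (GFP-negative treated minus IgG, vertical) against the mean of the group means in CPM (horizontal, log scale) for each gene tested with counts in either group. Coloured points passed the threshold: 31 mitosis and spindle genes lie between 0.83 and 2.75, and 23 early response or NF-kB genes between 0.59 and 2.07.

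By number of calls, mitosis was the largest group. Of 72 genes of mitosis and the spindle, all tested, 31 rose, none fell, and 71 had a positive fold change, with a median log2 fold change of 1.76 against -0.01 over all genes tested. The count stood at 0 to 5 when 1 library was left out: 3, 4 and 5 without GFP-negative treated replicates 1, 2 and 3, and 0 without either IgG replicate. DESeq2 called 55 of the 72 and limma-voom 2, which gave Ccnb1 an adjusted p of 0.150. In bulk RNA, more cells in division and more RNA per dividing cell cannot be told apart.

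Cyclins and mitotic kinases led the group. Ccnb1, the cyclin B1 that drives entry into mitosis, lay at 12.7, 10.8 and 10.7 CPM in GFP-negative treated and at 1.14 and 2.15 CPM in IgG libraries. All 3 treated libraries lay far above both IgG libraries, and the log2 fold change of 2.75 (SE 0.45, adjusted p = 0.0204) was a 6.71-fold rise. Ccnb2, its close relative, lay at 11.7, 13.6 and 14 CPM against 3.05 and 2.64 CPM and rose by 2.21 (SE 0.44, adjusted p = 0.0362). Ccna2, the cyclin of S phase and G2, lay at 27.9, 30.9 and 23.3 CPM against 4.32 and 7.54 CPM and rose by 2.18 (SE 0.40, adjusted p = 0.0310). Their shared kinase Cdk1 rose by 2.27 (SE 0.43, adjusted p = 0.0282). The polo kinase Plk1, which matures centrosomes and spindles, lay at 14.03, 15.6 and 12.1 CPM against 3.05 and 4.01 CPM and rose by 1.96 (SE 0.29, adjusted p = 0.0106). Each of these genes separated the groups in every library.

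The promoters of the B-type cyclins are shown because both genes moved together and because the CCAAT box, bound by NF-Y, and the CHR element are known features of G2 and mitosis promoters. The sequences are the 250 bases before the start of transcription from RefSeq (GRCm38.p6, an older build than the one named for the count table), 5′ to 3′ on the strand of the gene. Capitals mark CCAAT or the CHR element TTTGAA on either strand. Other forms of the CHR element were not searched, so a promoter without TTTGAA is not shown to lack the element.
Ccnb1, chr13:100786487-100786736, minus strand: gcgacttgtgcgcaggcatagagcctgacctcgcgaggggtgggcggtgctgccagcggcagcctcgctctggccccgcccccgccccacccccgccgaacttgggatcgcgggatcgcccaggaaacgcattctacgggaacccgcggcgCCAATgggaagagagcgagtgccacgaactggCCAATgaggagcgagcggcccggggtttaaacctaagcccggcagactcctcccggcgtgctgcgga
Ccnb2, chr9:70421555-70421804, minus strand: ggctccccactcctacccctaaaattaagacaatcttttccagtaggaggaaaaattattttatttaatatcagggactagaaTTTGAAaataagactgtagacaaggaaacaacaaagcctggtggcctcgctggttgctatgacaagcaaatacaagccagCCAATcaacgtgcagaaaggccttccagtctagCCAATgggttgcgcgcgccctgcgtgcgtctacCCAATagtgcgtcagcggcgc
Ccnb1 held CCAAT boxes beginning 99 and 67 bases before the start and no TTTGAA in this window. Ccnb2 held CCAAT boxes beginning 87, 54 and 21 bases before the start and TTTGAA beginning at 167. Of the 31 mitosis genes that rose, 27 had a promoter in the table, and 17 of these promoters (63.0%) held CCAAT on either strand, against 33.8% of all 32851 promoters and 35.9% of those of genes tested. TTTGAA stood in 8 of the 27 (29.6%), against 16.0% of all promoters and 11.3% of those of genes tested. The whole mitosis and spindle list had higher shares, with CCAAT in 46 of its 64 promoters (71.9%) and TTTGAA in 25 (39.1%). These shares are therefore not particular to the members that rose. A match is a description of these letters and not a binding site shown by these data.

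Genes of the spindle and of chromosome separation made up most of the rest. Aspm, a spindle pole protein, had the smallest p among mitosis genes: it lay at 23.8, 25.1 and 23.8 CPM in GFP-negative treated and at 6.61 and 8.22 CPM in IgG libraries, with a log2 fold change of 1.70 (SE 0.24, adjusted p = 0.00646). The treated libraries were nearly equal. Top2a, the topoisomerase that untangles chromosomes, lay at 103.7, 109.9 and 100.3 CPM against 28.0 and 34.8 CPM and rose by 1.73 (SE 0.29, adjusted p = 0.0282). The checkpoint kinases Bub1 and Bub1b rose by 2.17 and 1.96, the kinetochore genes Nuf2 and Knl1 by 1.75 and 1.49, and the passenger complex genes Birc5, Cdca8 and Incenp by 1.73, 1.65 and 0.83. Condensin subunits Ncapg, Ncaph and Ncapg2 rose by 1.94, 1.47 and 1.44. Motor proteins Kif18b, Kif2c, Kif15, Kif20a and Kif4 rose by 1.94 to 2.11.

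Other members missed the threshold with fold changes as large. Aurkb, the kinase of the passenger complex, lay at 7.07, 7.92 and 4.88 CPM against 1.14 and 2.15 CPM, with a log2 fold change of 1.96 (SE 0.43, adjusted p = 0.0525). Mki67, which encodes the proliferation marker Ki-67, lay at 229.8, 226 and 151 CPM in GFP-negative treated and at 32.0 and 81.9 CPM in IgG libraries. Those groups did not overlap, yet the IgG libraries differed from each other by more than those of most genes named above, and the log2 fold change of 1.82 (SE 0.53) had an adjusted p of 0.247. Smc4, a condensin subunit, was the single member with a negative value, -0.06.

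S phase and histone genes pointed the same way with fewer calls. Of 40 genes of DNA replication, 3 rose, none fell, and the median was 0.66. Rrm2, a subunit of ribonucleotide reductase, lay at 33.8, 34.0 and 29.99 CPM against 8.39 and 9.496 CPM and rose by 1.86 (SE 0.33, adjusted p = 0.0277). The nuclease Exo1 rose by 2.00 and the checkpoint adaptor Clspn by 2.07. By contrast Mcm2, of the replicative helicase, had a log2 fold change of 0.22 (SE 0.15, adjusted p = 0.803) and Pcna, the sliding clamp, 0.32 (SE 0.13, adjusted p = 0.424).

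All 39 replication-dependent histone genes had a positive fold change, with a median of 1.37, and 2 passed the test. H2bc11 lay at 15.6, 13.0 and 13.5 CPM against 3.31 and 3.72 CPM and rose by 1.99 (SE 0.38, adjusted p = 0.0297), and H2bc9 rose by 1.75 (SE 0.34, adjusted p = 0.0310). Histone genes are near-identical copies, so reads could be split between them and single members are uncertain. Among 25 tested genes of G1, which hold the D-type and E-type cyclins and the kinase inhibitors, the median was 0.11 and 1 gene, Gadd45b, rose. Pclaf, which binds PCNA, and Prr11, both outside the lists, rose by 2.28 and 2.16.

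**Figure D2:**
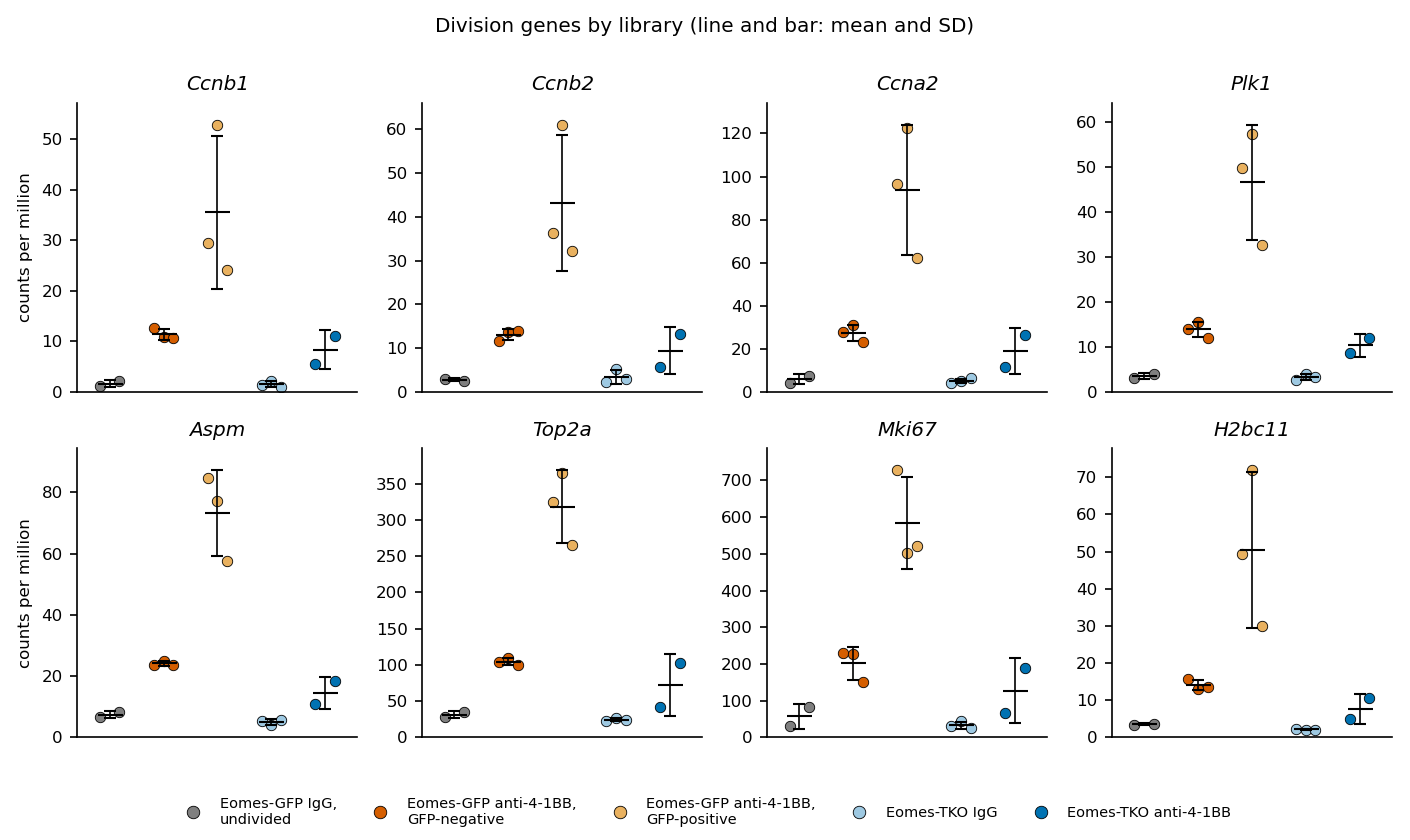
CPM (vertical, linear from 0) of 8 division genes in each library of the 5 groups, points for libraries, with the mean and SD. In each panel the 3 GFP-negative treated libraries lie above both IgG libraries, and the mean of the GFP-positive fraction is higher again, as for Ccnb1 at 29.5, 52.8 and 24.2 CPM.

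NF-kB genes moved in a small number. Of 70 genes in the lists of subunits and kinases, feedback inhibitors and targets, 7 rose, none fell, and the median was 0.14. That count was 1 without each GFP-negative treated replicate and without IgG replicate 1, and 0 without IgG replicate 2, and it was 13 with DESeq2 and 4 with limma-voom. Among 21 subunits and kinases 1 rose, Rel, which encodes c-Rel: it lay at 229.8, 178 and 184 CPM in GFP-negative treated and at 132 and 118 CPM in IgG libraries, a log2 fold change of 0.65 (SE 0.14, adjusted p = 0.0431). The other subunits had smaller values, with Nfkb1 at 0.14 (SE 0.10, adjusted p = 0.808), Relb at 0.35 (SE 0.24, adjusted p = 0.803) and Nfkb2 at 0.52 (SE 0.19, adjusted p = 0.338).

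Feedback inhibitors held the strongest member. Tnfaip3 encodes A20, the ubiquitin-editing enzyme that shuts off NF-kB signalling, and lay at 1455, 1201 and 1328 CPM in GFP-negative treated and at 499 and 345 CPM in IgG libraries. The lowest treated library was more than double the higher IgG library, and the log2 fold change was 1.65 (SE 0.21, adjusted p = 0.00372), a 3.15-fold rise. Nfkbiz, an atypical IkB protein, lay at 234, 225 and 246 CPM against 155 and 127 CPM and rose by 0.74 (SE 0.16, adjusted p = 0.0413). Zc3h12a, the RNase Regnase-1 that degrades inflammatory transcripts, rose by 0.78 (SE 0.17, adjusted p = 0.0458). Nfkbia, the classical inhibitor IkB-alpha, lay at 273, 283 and 334 CPM against 205 and 153 CPM; the groups did not overlap, and its log2 fold change of 0.73 (SE 0.18) had an adjusted p of 0.0894.

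Among 36 target genes 3 rose, Gadd45b, Irf1 and Junb, with a median of 0.34. Irf1, a transcription factor shared with the interferon response, lay at 383, 382 and 372 CPM in GFP-negative treated and at 237 and 235 CPM in IgG libraries, a log2 fold change of 0.68 (SE 0.12, adjusted p = 0.0232). Replicates lay close together in both groups. Gadd45b, a stress response gene, lay at 27.9, 33.0 and 29.4 CPM against 13.1 and 15.5 CPM and rose by 1.07 (SE 0.22, adjusted p = 0.0350). Tnfrsf9, the antibody's own receptor, lay at 10.4, 11.3 and 6.14 CPM in GFP-negative treated and at 13.4 and 16.1 CPM in IgG libraries, with a log2 fold change of -0.68 (SE 0.29, adjusted p = 0.485), and at 54.2, 70.6 and 47.2 CPM in the GFP-positive fraction. None of the 18 genes of 4-1BB and other costimulatory receptors was called.

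The promoters of Tnfaip3 and Irf1 are shown with matches to the NF-kB consensus in capitals, since both genes rose and are known NF-kB targets. The source, build and window are as above, and for each gene the first of the starts in the table is printed.
Tnfaip3, chr10:19015411-19015660, minus strand: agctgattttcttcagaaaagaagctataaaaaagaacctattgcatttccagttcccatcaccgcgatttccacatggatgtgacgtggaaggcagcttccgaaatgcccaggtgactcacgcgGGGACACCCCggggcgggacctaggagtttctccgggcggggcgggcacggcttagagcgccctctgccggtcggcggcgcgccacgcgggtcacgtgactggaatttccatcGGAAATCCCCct
Irf1, chr11:53769764-53770013, plus strand: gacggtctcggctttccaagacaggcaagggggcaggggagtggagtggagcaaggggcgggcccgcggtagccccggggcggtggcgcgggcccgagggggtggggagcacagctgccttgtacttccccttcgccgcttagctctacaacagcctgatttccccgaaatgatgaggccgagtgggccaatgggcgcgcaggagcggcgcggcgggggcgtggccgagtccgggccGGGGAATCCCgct
Tnfaip3 held matches beginning 125 and 12 bases before the start, and Irf1 held 1 beginning 13 bases before it. The second start listed for each gene held none. Among the 23 early response or NF-kB genes that rose, 17 had 25 promoters in the table, and 4 of these (16.0%) held a match on either strand, those of Irf1, Maff, Rel and Tnfaip3, against 7.25% of all promoters and 8.76% of those of genes tested. The E-box CACGTG stood in 6 of the 25 (24.0%), against 6.02% of all promoters and 8.26% of those of genes tested. Of the other motifs searched, AP-1 sites and cyclic AMP response elements each stood in 2 (8%), against 4.12% and 2.61% of those of genes tested. The serum response element core stood in 1 (4%, against 1.16%), CCAAT in 8 (32%, against 35.9%) and TTTGAA in 1 (4%, against 11.3%). Irf1, Rel and Tnfaip3 entered this set through the NF-kB lists. Its share of NF-kB matches was thus partly set by that choice.

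Early response genes gave the second large group. Of 52 listed genes 48 were tested, and 17 rose, none fell, with a median of 0.48 and 41 positive values. Without GFP-negative treated replicates 1, 2 and 3 the count was 6, 7 and 6, without IgG replicate 1 it was 4, and without IgG replicate 2 it was 0. Of the 17, Dusp1, Dusp4 and Dusp10 missed the threshold with limma-voom (adjusted p = 0.0733, 0.0922 and 0.0852), and the others passed it. The members that rose included nuclear receptors, phosphatases, regulators of G protein signalling, a kinase and transcription factors.

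Bhlhe40, a helix-loop-helix repressor induced by T cell receptor signals, had the largest change of the list. It lay at 101, 138 and 107 CPM in GFP-negative treated and at 24.4 and 30.2 CPM in IgG libraries, a log2 fold change of 2.07 (SE 0.36, adjusted p = 0.0310) or 4.21-fold. Rgs1, which limits chemokine receptor signalling, lay at 71.96, 76.8 and 71.8 CPM against 28.7 and 29.96 CPM and had the smallest p of the genes that rose, with 1.32 (SE 0.14, adjusted p = 0.00153). Both genes separated the groups by more than the spread within either.

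The orphan nuclear receptors of the Nr4a family, which follow T cell receptor signalling, all rose. Nr4a1 lay at 173, 168 and 179 CPM against 96.5 and 94.5 CPM, a log2 fold change of 0.86 (SE 0.12, adjusted p = 0.00588). Nr4a2 lay at 16.5, 15.1 and 17.1 CPM against 5.98 and 5.58 CPM, a change of 1.49 (SE 0.19, adjusted p = 0.00372), and Nr4a3 rose by 0.75 (SE 0.12, adjusted p = 0.0200). Phosphatases of MAP kinases rose in 4 members: Dusp4 by 1.39, Dusp5 by 1.10, Dusp10 by 0.63 and Dusp1 by 0.59.

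Per1, a circadian repressor also induced by cyclic AMP and glucocorticoids, lay at 243, 212 and 223 CPM in GFP-negative treated and at 105 and 103 CPM in IgG libraries, a rise of 1.12 (SE 0.14, adjusted p = 0.00372). Junb, an AP-1 subunit, lay at 2041, 1995 and 1906 CPM against 999 and 982 CPM and rose by 1.00 (SE 0.19, adjusted p = 0.0282). Sik1, a salt-inducible kinase, rose by 1.11 and the small Maf protein Maff by 1.86. Klf4, Rgs2, Csrnp1 and the pseudokinase gene Trib1 rose by 1.00, 0.80, 0.88 and 1.08.

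Some well known members of the list were not among the calls. Fos lay at 368, 432 and 452 CPM in GFP-negative treated and at 429 and 303 CPM in IgG libraries, which overlapped, with a log2 fold change of 0.19 (SE 0.15, adjusted p = 0.840). Egr1 lay at 149.9, 158 and 157 CPM against 143 and 163 CPM (0.02, SE 0.15, adjusted p = 0.994), and Myc at 78.7, 89.9 and 98 CPM against 87.9 and 112 CPM (-0.17, SE 0.24, adjusted p = 0.951). Both also overlapped between the groups. Egr2 (16.1, 29.5 and 20.4 CPM against 29.8 and 32.2 CPM) and Egr3 (29.4, 41.9 and 32.6 CPM against 44.6 and 48.8 CPM) lay lower without overlap and were not called. Of the 48 tested members 30 lay higher and 2 lower without overlap, against 14.3% and 15.7% of all genes tested.

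**Figure D3:**
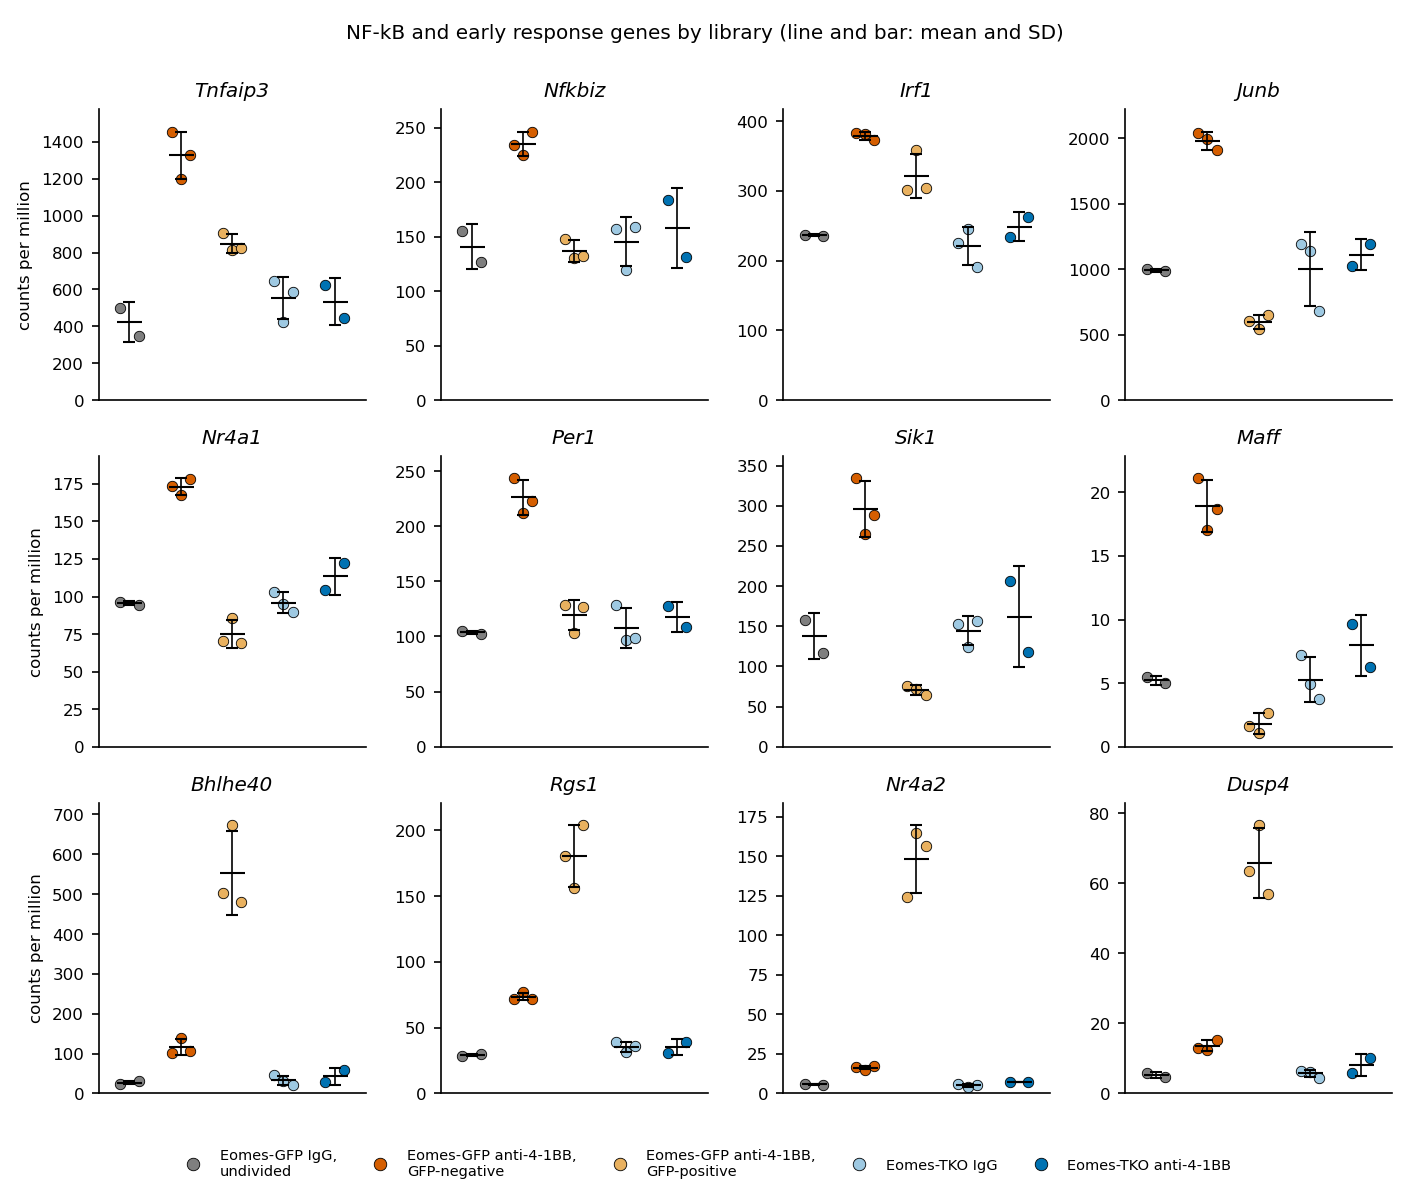
CPM (vertical, linear from 0) of 12 NF-kB and early response genes in each library of the 5 groups, with the mean and SD. GFP-negative treated libraries lie above both IgG libraries in each panel; in the first 8 panels the mean of the GFP-positive fraction is below that of the GFP-negative fraction, as for Junb, and in the last 4 it is above it, as for Bhlhe40.

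The GFP-positive fraction of treated cells divided these groups. Each of its libraries shared the start of its name with a GFP-negative library, read here as the same animal. The edgeR test did not pair them. The GFP-positive against GFP-negative comparison called 20.7% of genes higher and 16.5% lower, and it shares the GFP-negative libraries with the comparison above, so its values are given side by side and not as a second test. Across the 72 mitosis genes 68 were called higher in GFP-positive cells and none lower, among them all 31 that rose in GFP-negative cells. Ccnb1 lay at 29.5, 52.8 and 24.2 CPM in GFP-positive libraries, above each GFP-negative library. Across the 48 early response genes 11 were called higher and 27 lower in GFP-positive cells.

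Early response genes thus took different orders over the 3 Eomes-GFP groups. Junb lay at 604, 543 and 647 CPM in GFP-positive libraries, below both IgG libraries, whereas its GFP-negative libraries lay above them. Maff lay at 1.66, 1.05 and 2.69 CPM in GFP-positive, 5.47 and 4.99 CPM in IgG and 21.1, 17.1 and 18.7 CPM in GFP-negative libraries. Nr4a1 lay at 70.7, 85.8 and 69.0 CPM in GFP-positive libraries, also below IgG. Tnfaip3 lay between the groups at 906, 812 and 823 CPM. Bhlhe40 (504, 673.3 and 481 CPM), Rgs1 (181, 156 and 204 CPM), Nr4a2 (124, 165 and 157 CPM), Dusp4 and Trib1 were highest in GFP-positive libraries. Of all 92 genes that rose in GFP-negative cells, 61 had a still higher mean in GFP-positive cells and 18 had a GFP-positive mean below that of IgG. Of all 14059 genes tested, 7226 had a positive fold change in GFP-positive against GFP-negative cells, and 7021 a negative one against IgG.

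The antibody contrast of the Eomes-TKO line shares no library with this one and was read beside it. There 6 genes were called higher (0.0427%), 0 were called lower in the edgeR test, and 506 had an unadjusted p under 0.05. No other tool was run on that count. The 6 genes, Aspm, Nusap1, Hmmr, Cdca8, Spag5 and Ckap2, were all mitosis genes that also rose in GFP-negative cells. The mitosis list had a median log2 fold change of 1.52 in Eomes-TKO cells against 1.76 here. The sign was the same in both for 70 of 72 members, against 58.8% of all genes tested. Ccnb1 lay at 5.62 and 11.2 CPM in antibody-treated and at 1.46, 2.27 and 1.06 CPM in IgG Eomes-TKO libraries, without overlap, with a log2 fold change of 2.38 (SE 0.42, adjusted p = 0.0707). Eomes-TKO treated replicate 2 was higher than replicate 1 for Ccnb1, and the summed list stood at 1941 and 1211 CPM in them.

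No early response or NF-kB gene was called in the Eomes-TKO contrast. The early response median was 0.01 there, with members from -1.05 to 0.57, against a median of 0.48 here. The 70 NF-kB genes had a median of -0.01 there, with members from -0.70 to 3.64, and of 0.14 here. Tnfaip3 lay at 623 and 443 CPM in antibody-treated and at 648, 425 and 585 CPM in IgG Eomes-TKO libraries, which overlapped, with a log2 fold change of -0.05 (SE 0.19). Rgs1 had 0.00 (SE 0.14), Per1 0.12 (SE 0.14) and Bhlhe40 0.39 (SE 0.34).

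The difference between the antibody contrasts was tested gene by gene in the same model. No gene passed by edgeR, with 416 at an unadjusted p under 0.05, and DESeq2 called 9. Tnfaip3 differed by 1.71 (SE 0.28, adjusted p = 0.117), Rgs1 by 1.32 (SE 0.20, adjusted p = 0.0808) and Per1 by 1.00 (SE 0.20, adjusted p = 0.362), whereas Ccnb1 differed by 0.37 (SE 0.64, adjusted p = 1). Treated Eomes-TKO cells were not divided by GFP, so the line, the gate and the antibody all enter this difference and cannot be told apart.

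**Figure D4:**
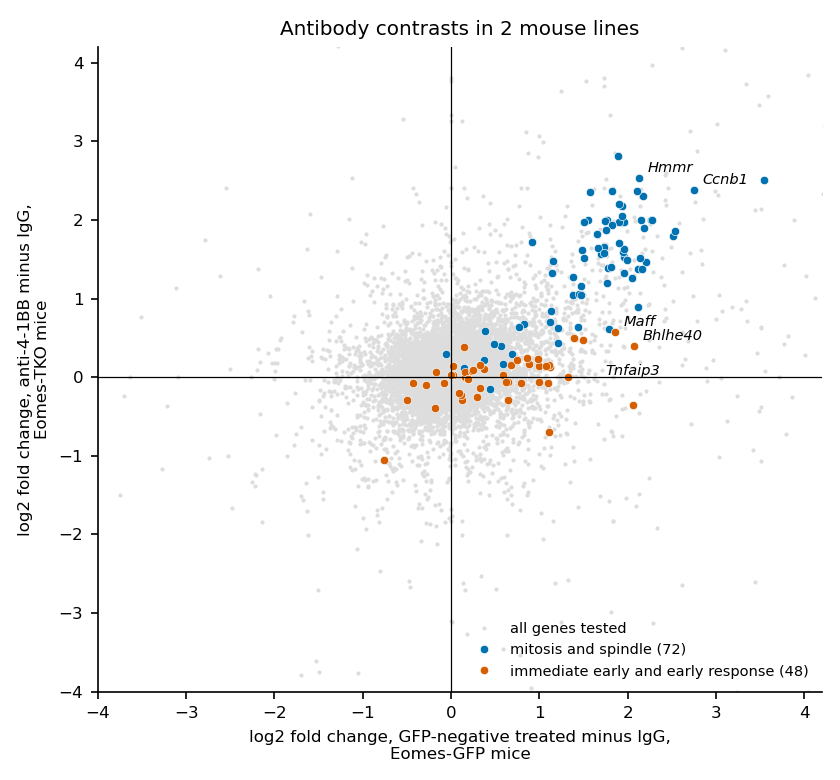
Log2 fold change in the Eomes-TKO antibody contrast (vertical) against that of GFP-negative treated minus IgG (horizontal); points beyond the axes are not drawn. Mitosis genes (72) lie high on both axes, with medians of 1.52 and 1.76, and early response genes (48) spread along the horizontal axis, with medians of 0.01 and 0.48.

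Other programmes gave few calls. Of 40 interferon response genes 39 had positive values, with a median of 0.49 against -0.01 in the Eomes-TKO contrast, and 1 rose, Irf1. Of these 40 genes, 23 lay higher and 0 lower without overlap, against 14.3% and 15.7% of all genes tested. Gbp4, a guanylate-binding protein, had a log2 fold change of 0.46 (adjusted p = 0.117). Gbp10, another guanylate-binding protein gene but outside the list, was called and rose by 1.38 (adjusted p = 0.0458). Of 24 tested chaperones Hspa5, the endoplasmic reticulum chaperone BiP, rose by 0.57 (SE 0.11, adjusted p = 0.0299) and its cofactor Dnajb9 by 0.73 (SE 0.13, adjusted p = 0.0232). Of 24 cholesterol and fatty acid synthesis genes 22 had negative values, with a median of -0.19, and none was called. Genes of naive and quiescent T cells had a median of -0.05 with none of 22 called. Tcf7, the factor of naive and progenitor T cells, lay at 1655, 1418 and 1442 CPM in GFP-negative treated and at 1412 and 1566 CPM in IgG libraries, which overlapped (0.02, SE 0.22, adjusted p = 0.996).

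Of 36 effector genes Eomes fell and none rose, with a median of 0.27. Ifng, the cytokine of Th1 cells, lay at 12.7, 20.6 and 17.9 CPM in GFP-negative treated and at 7.76 and 8.42 CPM in IgG libraries, with a log2 fold change of 1.07 (SE 0.28, adjusted p = 0.113). The groups did not overlap. Runx2, a Runt family transcription factor outside the lists, lay at 69.9, 54.95 and 39.7 CPM against 12.5 and 15.4 CPM and rose by 1.97 (SE 0.34, adjusted p = 0.0282).

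**Figure D5:**
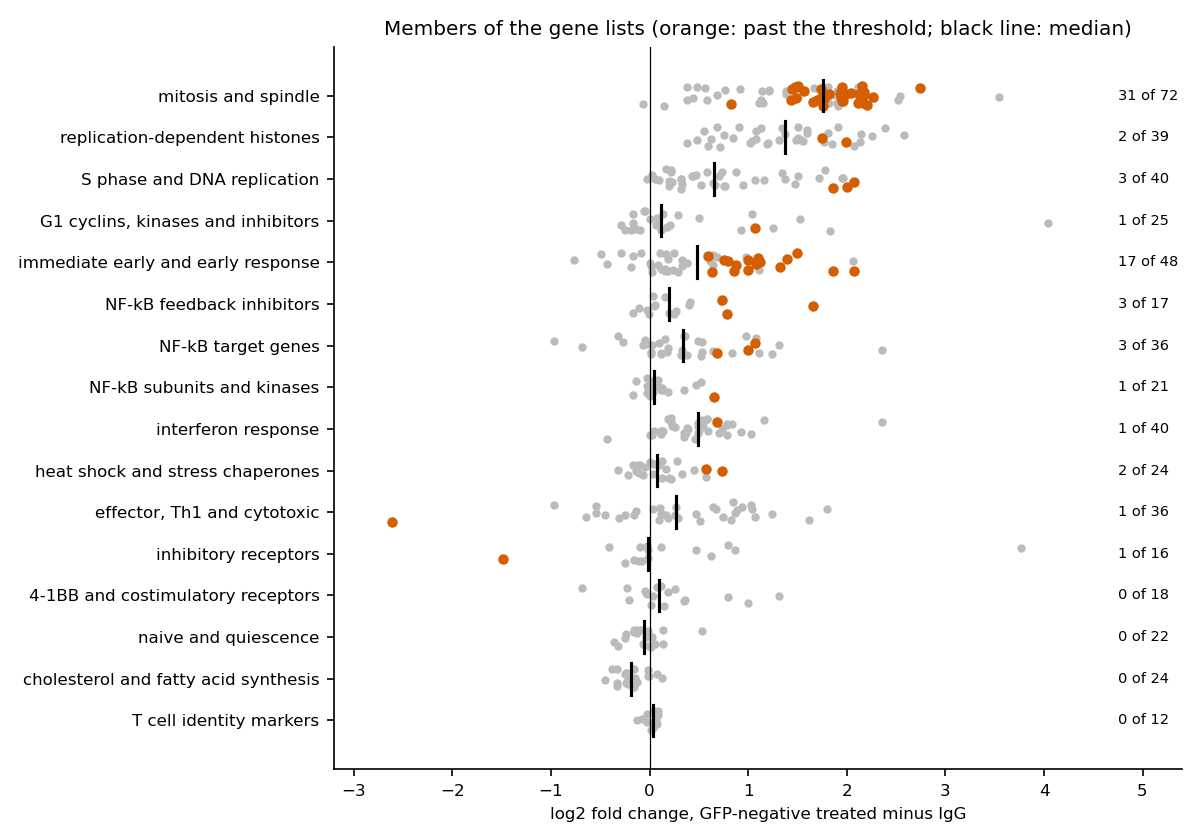
Log2 fold change of each tested member (horizontal) for 16 of the gene lists (rows), orange where it passed the threshold, with the list median as a black line and the number called of the number tested at the right. Mitosis genes stand at a median of 1.76 and histones at 1.37, while T cell identity genes stand at 0.03 with none called.

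The 15 genes called lower were of mixed kinds. Myb, a transcription factor of progenitor and memory T cells, lay at 38.5, 32.5 and 31.1 CPM in GFP-negative treated and at 69.7 and 76.1 CPM in IgG libraries and fell by 1.10 (SE 0.14, adjusted p = 0.00372) on the log2 scale. Kcnc1, a potassium channel gene below the level set for naming and singled out after its values were seen, lay at 0.366, 0.244 and 0.271 CPM against 3.43 and 4.70 CPM and fell by 3.74 (SE 0.37, adjusted p = 0.000746). It was the single called gene that passed in all 5 fits leaving out a library. Clec2d, a lectin recognised by NKR-P1 receptors, fell by 0.89, the glycosyltransferase gene Alg11 by 0.68, and the zinc finger genes Zfp719, Zfp322a, Zfp81 and Zfp397 by 0.95, 0.61, 0.57 and 0.52.

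In the fraction that the gate removed, 12 of the 15 had a higher mean than in GFP-negative cells, as Eomes did. Of all 14059 genes tested, 7226 had a positive fold change in that direction. The 15 were picked for low values in the same GFP-negative libraries, which favours this order. A GFP-positive mean below that of IgG was found for 9 of the 15, so that the means of both treated fractions lay below IgG. Among all genes tested, 7021 had a negative fold change in GFP-positive cells against IgG. Kcnc1 lay at 15.4, 16.6 and 14.8 CPM and Myb at 200.5, 155 and 217 CPM in GFP-positive libraries, above both IgG and GFP-negative libraries. Cd160 lay at 2.56, 2.68 and 1.90 CPM in GFP-negative, 5.21 and 8.03 CPM in IgG and 11.4, 11.1 and 10.6 CPM in GFP-positive libraries. Klrb1c, of the 9, was lowest in GFP-positive libraries, at 0.554, 0.393 and 0.537 CPM, against 1.71, 1.95 and 0.813 CPM in GFP-negative and 6.99 and 6.66 CPM in IgG libraries. For the genes with a GFP-positive mean above IgG, lower values set by the gate and by the antibody cannot be told apart.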

How the data were processed

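Total RNA of sorted spleen cells was sequenced after ribosomal RNA depletion, starting from 11 ng, per the labels' protocols. The authors deposited 1 table whose unit is the estimated count per gene. The submitters' processing notes list Salmon (1.5.2), STAR (2.7.10a), Trim Galore (0.6.7), cutadapt (3.4) and, as build, GRCm39, without the role of each. In the 5 libraries 6.58% to 7.33% of estimated counts were not whole, and all were rounded. The table held 47 library columns: 13 could be tied to a sample by name, and 34 were not used here.

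The test was edgeR's robust quasi-likelihood test (edgeR 4.0.16, R 4.3.3), two-sided, on 13 libraries of 5 groups in 1 model with 8 residual degrees of freedom, after TMM normalization and the filterByExpr filter, which left 14059 of 56748 genes. A gene was called at a Benjamini-Hochberg adjusted p under 0.05, and adjusted p-values are from this model except where a tool is named. SE was |log2 fold change| over the square root of the F statistic. CPM are TMM-scaled. The level given for 3 counts covers counting error only. Replicates differed beyond counting noise (chi-square over its degrees of freedom, 12.3 to 25.0).

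Genes and lists were chosen with earlier results of these data known. Named were, for each direction, the 15 largest changes at most, and at most 10 with the smallest p, among calls without overlap whose mean log2 CPM reached 2, without receptor segments and unnamed genes. Any called list member could be named too, as could Ccnb1, Tnfaip3, Bhlhe40, Eomes, Foxp3, Tcf7, Tnfrsf9, Mki67, Nfkbia, Fos, Egr1, Nr4a1 and Myc. Further list members were named as examples. Alternatives were other normalizations, filters, tools, sample sets, blocks, a fold threshold and leaving out each library. For the animal block, the animal was read from the start of the library name. The test was checked on simulated data. No genome of the GRCm39 build was used here, and promoters are RefSeq sequences on GRCm38.p6.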

Additional observations from a re-analysis of the deposited data

How the results depend on the processing

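No called gene changed direction in 11 other settings or in 5 fits without 1 library, which the lack of overlap between groups fixes and which is no sign of stability. Counts depended on the setting, and the cause was not tested. Genes called higher (92) were 250 with DESeq2, 32 with limma-voom, 434 with no filter, 336 with the 5 libraries alone, 32 with the animal as a random block (limma-voom), 1 at a fold threshold of 1.5, and 0 to 18 with 1 library left out. Genes called lower (15) were, in the same order, 47, 8, 87, 57, 8, 2, and 1 to 4. Mitosis members called (31) were 55, 2, 60, 58, 2, 0, and 0 to 5. NF-kB members called (7) were 13, 4, 15, 14, 4, 0, and 0 to 1, and 4 with total counts alone. Early response members called (17) moved to 1 at a fold threshold of 1.5 and to 0 to 7 with 1 library left out. The difference between antibody contrasts (0 called) gave 9 with DESeq2, 87 with no filter, and 1 each with upper-quartile scaling and total counts alone. The replicate block gave 230 higher, 36 lower, 49 mitosis members and 1 gene in the difference; same-numbered libraries correlated at -0.019 and 0.051 in their deviations, so the numbers were read as labels and not as pairs. Leaving out any 1 of the 5 libraries ended most calls. Of the 107 calls, 16, 21 and 20 were kept without GFP-negative treated replicates 1, 2 and 3. With 2 IgG libraries, leaving out either left a single library in that group.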

Other observations

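Among the 29 genes that rose outside every list, several regulators of metabolism and transcription were chosen for mention after their values were seen. Odc1, the rate-limiting enzyme of polyamine synthesis, lay at 120.0, 115 and 97.0 CPM in GFP-negative treated and at 46.8 and 39.9 CPM in IgG libraries, a log2 fold change of 1.35 (adjusted p = 0.0106), and at 0.19 in the Eomes-TKO contrast. Klf11, a Krüppel-like factor, lay at 51.4, 41.9 and 53.0 CPM against 22.9 and 15.7 CPM (1.35, adjusted p = 0.0141) and at 0.11 in Eomes-TKO cells. The small Maf gene Mafk (0.71, adjusted p = 0.0232), the phosphatase gene Ptp4a1 (0.89, adjusted p = 0.0165) and the stress response gene Zfand2a (1.00, adjusted p = 0.0210) had values of 0.08, -0.02 and 0.13 there.

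Division genes outside the lists were also called. Diaph3, a formin (1.51, adjusted p = 0.0291), and Cip2a, an inhibitor of the phosphatase PP2A (1.37, adjusted p = 0.0291), had 1.44 and 1.08 in the Eomes-TKO contrast.

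Rpl35a-ps6, a processed pseudogene of a ribosomal protein gene, held 178 estimated counts over the GFP-negative treated libraries, 0 in IgG libraries and 0 in GFP-positive and Eomes-TKO libraries. Against a floor of 3 counts over the IgG group it was at least 39.0-fold higher. DESeq2 did not call it (adjusted p = 0.786). Its reads could be shared with near-identical ribosomal protein copies, which makes the value uncertain. Lyz2 lay at 4.51, 12.9 and 9.57 CPM in GFP-negative treated and at 0.509 and 0.196 CPM in IgG libraries, and S100a8 and S100a9, neutrophil genes, were at 0 in both IgG libraries.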
